A study of Homo sapiens with 6 samples.

Results

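A set of 9 genes of the plasminogen system and of pericellular proteolysis were followed in RNA sequencing of human liver cancer cells that overexpressed transketolase (TKT), an enzyme of the pentose phosphate pathway. The 9 genes are the proteases PLAU, PLAT and ADAMTS1, the receptor PLAUR, the cofactor F3, and the inhibitors SERPINE2, TFPI, TFPI2 and TIMP1. They were chosen by name, from measured fold changes between these same 6 libraries, so their own values are given as a description, with no p-value, and a count of how many the fit over all genes called is printed only beside the share of all genes. Of the 9 genes, 8 had a row among the 22077 gene symbols measured; TIMP1 was not analysed here. The study compared 3 libraries of cells overexpressing TKT with 3 control libraries, whose genotype the labels give as wt, and asked how TKT shapes hepatocellular carcinoma and its resistance to chemoembolization. The labels call the line Hu7, while the study's text speaks of Huh7 in its results and of HCCLM3 in its methods; both are established hepatocellular carcinoma lines. The methods describe a plasmid carrying TKT with GFP and a puromycin selection gene, and do not state its promoter or whether the cells are a single clone. The control libraries are titled VC, and the methods do not state whether their cells carried an empty plasmid. The labels call the libraries biosamples of a group without saying whether they came from separate cultures. The study's methods give at least 3 independent repeats for all experiments unless stated otherwise, without naming the sequencing. The p-values therefore measure the spread between these samples, which may be technical.

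Library totals ran from 30148788 to 37096156 counts. Levels below are normalised read counts, in CPM (counts per 1000000 counts of a library) after scaling by the trimmed mean of M values, or deposited FPKM (fragments per kilobase of gene, scaled to library depth), where genes are compared with each other. TKT itself checked the labels. It stood at 497, 469 and 515 CPM in the control libraries and at 9402, 9549 and 9392 CPM in the overexpression libraries, 4.26 on the log2 scale (adjusted p = 1.2e-25 in edgeR). The counts do not separate introduced from endogenous TKT. The hepatocyte origin was checked with 12 markers. They summed to 5754, 5828 and 5873 FPKM in controls and to 6028, 6083 and 6164 FPKM in overexpressing libraries. AFP was the most abundant, at 2641 FPKM. APOB, a defining hepatocyte gene, was at or near 0, with at most 6 counts in any library. Of these hepatocyte markers 11 were tested, of which 3 rose and 1 fell, where 5.69% of all tested genes rose and 4.94% fell. The fibrinogen genes FGA and FGB rose by log2 fold changes of 0.50 each and APOH by 0.30 (edgeR adjusted p = 9.5e-10, 8.9e-10 and 4.8e-05), while the hepatocyte transcription factor HNF4A fell by 0.15 (edgeR adjusted p = 0.0072). Of 9 fibroblast and stellate markers, 6 had a row and summed to at most 1.23 FPKM, with PDGFRA the most abundant. Of 7 endothelial markers, 3 had a row, and nearly all of their sum was PECAM1, at 2.31 FPKM. Of 7 leukocyte markers, 6 had a row; LYZ made up most of their sum, which was 88.6, 94.2 and 94.02 FPKM in controls and 73.4, 70.3 and 76.0 FPKM in overexpressing libraries, while CD68 and CD3E never passed 2 counts. The part of LYZ in any result below was not tested. In bulk RNA, fewer cells of a type and less RNA per cell cannot be told apart.

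Plasminogen is a circulating zymogen, made mainly by hepatocytes, that is cut to plasmin by the urokinase (PLAU) or tissue-type (PLAT) activator. The urokinase receptor PLAUR holds this cutting at the cell surface, and serpins such as SERPINE2 stop the activators. Tissue factor (F3) starts coagulation with factor VII, TFPI inhibits that complex, and TFPI2, ADAMTS1 and the TIMP proteins act on proteases or matrix around the cell.

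Among the proteases, ADAMTS1, a secreted metalloproteinase that cleaves proteoglycans such as versican, had the most counts. It measured 54.8, 57.0 and 52.8 CPM in the control libraries and 66.2, 66.4 and 67.8 CPM in the overexpression libraries. Every overexpression library lay above every control library, and the log2 fold change was 0.28 (SE 0.05). PLAU, the urokinase activator, was scarce, at 1.18, 0.95 and 0.98 CPM in controls and 1.16, 1.199 and 0.70 CPM with TKT, from 23 to 43 counts a library. The groups overlapped, with the lowest value in an overexpression library, and the log2 fold change was -0.03 (SE 0.36). PLAT, the tissue-type activator, had 12, 2 and 5 counts in controls and 6, 2 and 17 counts with TKT. It failed the filter on low counts, and 1 library in each group was at 2 counts, under the floor of 3 counts, so no fold change is given.

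PLAUR, the receptor that anchors urokinase at the cell surface, measured 0.95, 1.05 and 1.40 CPM in controls and 0.67, 0.78 and 0.97 CPM with TKT. The highest overexpression library lay just above the lowest control library, and the log2 fold change was -0.49 with an SE of 0.36. It was -0.31 without control replicate 3, the highest control, and -0.09 on the log2 scale of FPKM + 1. F3, the cell-surface cofactor of factor VII, measured 11.6, 11.3 and 11.2 CPM in controls and 12.5, 12.1 and 12.4 CPM with TKT. The groups did not overlap, although the gap was narrow and the log2 fold change of 0.11 was close to its SE of 0.10.

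The inhibitors differed among themselves. TFPI2, a Kunitz inhibitor of plasmin and of the tissue factor complex that sits in the matrix, measured 1.34, 0.99 and 1.94 CPM in controls and 3.16, 2.72 and 2.83 CPM with TKT. The groups were apart, and the log2 fold change of 1.03 (SE 0.26), or 2.04-fold, was the widest of the 7 members that passed the filter. On the log2(FPKM + 1) scale, which compresses low genes, the same difference was 0.48, and without single libraries it ran from 0.83, without control replicate 2, to 1.32, without control replicate 3. TFPI, which inhibits the complex of tissue factor and factor VII together with factor Xa, measured 64.3, 67.6 and 72.1 CPM in controls and 76.9, 78.8 and 78.0 CPM with TKT. Its groups were apart as well, with a log2 fold change of 0.19 (SE 0.05). SERPINE2, an inhibitor of thrombin, urokinase and plasmin, measured 14.2, 14.6 and 11.8 CPM in controls and 14.8, 13.4 and 13.8 CPM with TKT. Its groups overlapped, and the log2 fold change was 0.05 (SE 0.11).

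**Figure D1:**
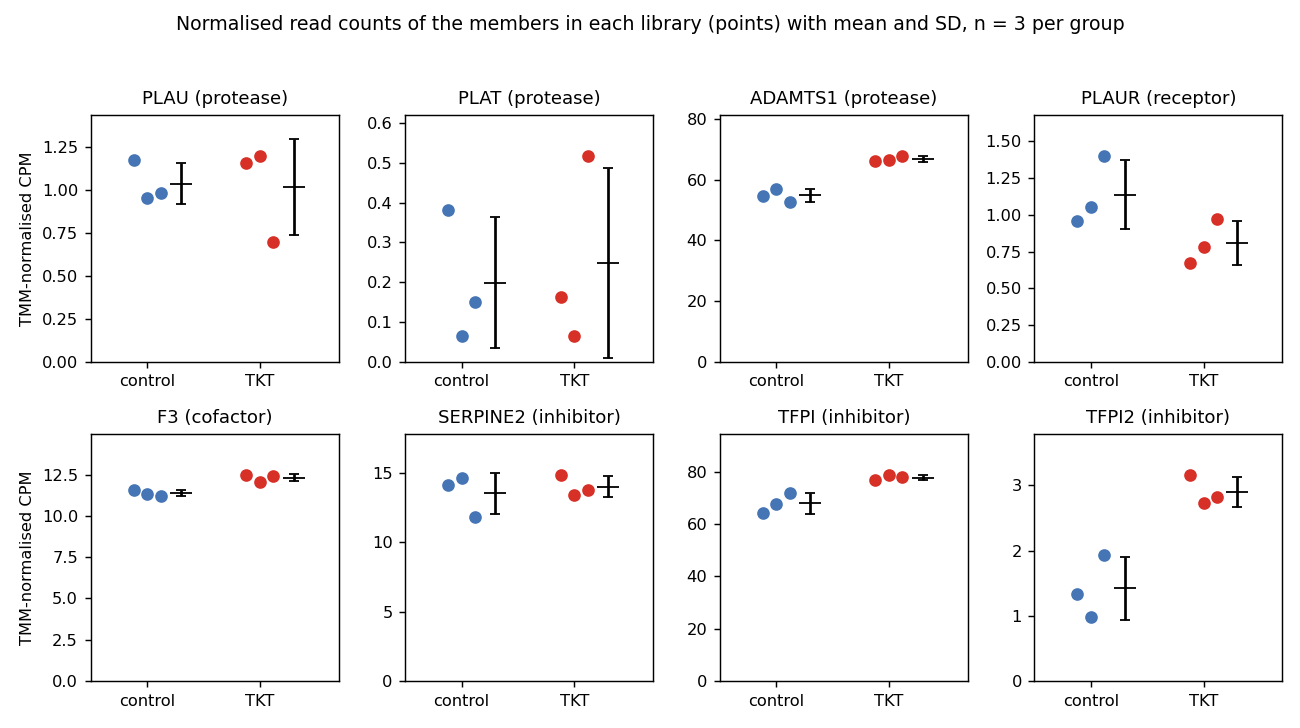
TMM-normalised CPM (y axis, each panel starting at 0 with its own scale) of the 8 members with a row, in 3 control and 3 TKT overexpression libraries (points), with mean and SD beside them. ADAMTS1, F3, TFPI and TFPI2 have every overexpression library above every control library; PLAU, PLAT, PLAUR and SERPINE2 overlap.

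Altogether 7 of the 9 members passed the filter on low counts, and 3 of them, ADAMTS1, TFPI and TFPI2, were called higher at an adjusted p under 0.05, a rule that called 5.69% of all 14162 tested genes higher. Groups did not overlap, with TKT above, for 4 of the 8 measured members, and this held for 14.1% of tested genes; it held in the other direction for 13.9%. TFPI2 was the only member past an absolute log2 fold change of 1 with all libraries, and it was past it in 3 of the 6 fits that left out a library; 0.727% of tested genes were called beyond that fold. Since the members were picked on this contrast, nothing is read from these counts.

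Per kilobase, the members spanned over 2 orders of magnitude. In controls the mean FPKM was 7.47 ± 0.35 for ADAMTS1, 5.78 ± 0.33 for TFPI and 3.92 ± 0.07 for F3 (SD, n = 3). It was 1.504 ± 0.17 for SERPINE2 and 0.58 ± 0.19 for TFPI2. The lowest 3 were PLAU at 0.35 ± 0.04, PLAUR at 0.25 ± 0.05 and PLAT at 0.025 ± 0.021 FPKM. The same order held in the overexpression libraries, where ADAMTS1 reached 9.13 ± 0.23, TFPI 6.63 ± 0.10 and TFPI2 1.18 ± 0.09 FPKM, and no neighbouring pair in this order overlapped in either group. Both activators, PLAU and PLAT, were thus below SERPINE2 in every library. Among genes of the pathway outside the members, PLG, the plasminogen gene, stood at 0.60 and 0.58 FPKM. MMP14, the membrane protease that can activate secreted collagenases and gelatinases, stood far above it at 37.2 and 39.5 FPKM.

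**Figure D2:**
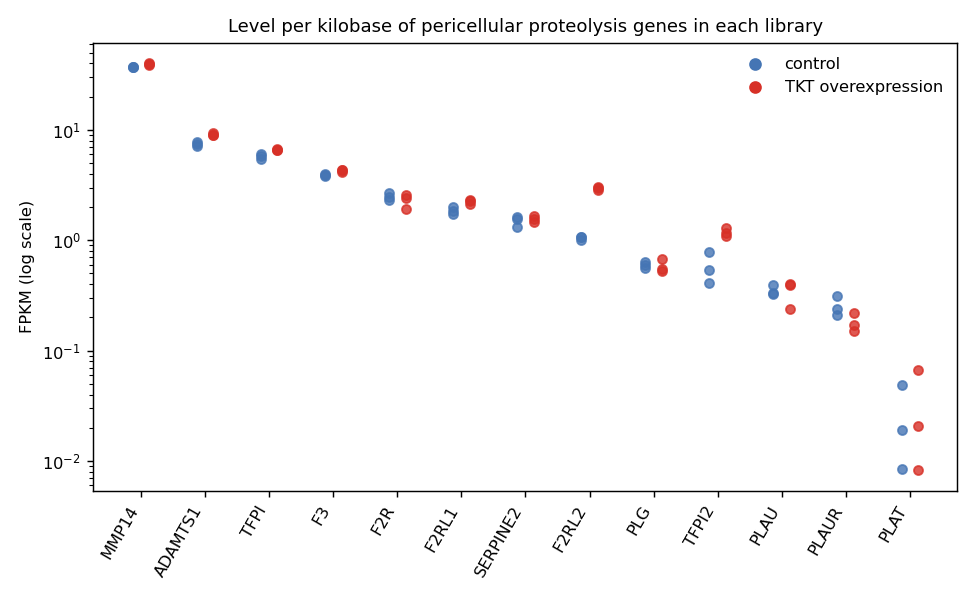
FPKM on a log axis of the measured members and of PLG, MMP14, F2R, F2RL1 and F2RL2 in each of 3 control (blue) and 3 TKT overexpression (red) libraries, ordered by the control mean. MMP14 is the most abundant gene plotted at 37.2 FPKM in controls, and PLAT the least at 0.025 FPKM.

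The cofactor F3 was set against its inhibitor TFPI within each library by the ratio of their FPKM values, again with no test. F3 over TFPI was 0.731, 0.679 and 0.630 in controls and 0.658, 0.621 and 0.646 with TKT. These groups overlapped, with means of 0.680 ± 0.050 and 0.642 ± 0.019 (SD, n = 3). No ratio of ADAMTS1 to TIMP1 could be formed; TIMP3, another metalloproteinase inhibitor, stood at 11.1 FPKM in controls and 10.02 FPKM with TKT.

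Beyond the members, 160 further genes of the pathway were listed by role, and 106 of them passed the filter. Their median log2 fold change was 0.04, beside 0.00082 over all tested genes. With edgeR, 12 rose and 5 fell at an adjusted p under 0.05, which is 11.3% and 4.72% of those tested, beside 5.69% and 4.94% of all tested genes. Of these 17 calls, 8 held under every processing alternative that gave a value and 9 were lost under at least 1 of them. The list counts left out the members.

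Of 89 listed proteases 48 were tested. Of these, 7 rose (14.6%, beside 5.69% of all tested genes), 3 fell (6.25%, beside 4.94%) and 38 did not pass. The median log2 fold change of the 48 was 0.05. PRSS23, a secreted serine protease, rose most firmly, from 26.0, 24.8 and 27.6 CPM in controls to 45.6, 41.0 and 44.1 CPM with TKT. That is a log2 fold change of 0.74 (SE 0.07, edgeR adjusted p = 9.9e-08), although 11.9% of its exon bases are shared with FZD4 on the opposite strand. PROC, the anticoagulant protein C made by hepatocytes, rose by 0.34 (SE 0.06, edgeR adjusted p = 0.0012). MEP1A, the alpha subunit of the astacin protease meprin, fell from 43.5, 40.4 and 42.3 CPM to 28.6, 29.7 and 29.1 CPM, a log2 fold change of -0.53 (SE 0.06, edgeR adjusted p = 4.0e-06). It was also the most abundant gene of its list. ADAM15, a membrane-anchored disintegrin and metalloproteinase, fell by 0.25 on the log2 scale, and CTSD, the lysosomal protease cathepsin D, fell by 0.22 (edgeR adjusted p = 0.0022 and 0.0041). Reads of CTSD are uncertain, since 41.7% of its exon bases lie in another annotated gene on the same strand.

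The other calls among proteases were less firm. ADAMTS10, a relative of ADAMTS1, and TLL2 and TLL1, relatives of the procollagen protease BMP1, rose by log2 fold changes of 0.81, 1.14 and 0.48 (edgeR adjusted p = 0.017, 0.036 and 0.034). MMP23B rose by 1.56 (edgeR adjusted p = 0.029) on 9 to 58 counts a library and has a near-identical copy, MMP23A, with which reads may be shared. On the log2(FPKM + 1) scale the differences were 0.26 for ADAMTS10, 0.16 for TLL2, 0.23 for TLL1 and 0.35 for MMP23B. HABP2, a plasma serine protease, rose by 0.18 (edgeR adjusted p = 0.0497), and shares 10.04% of its exon bases with NRAP on the opposite strand. These 5 calls were each lost without overexpression replicate 1, with edgeR adjusted p of 0.085 for ADAMTS10, 0.16 for TLL2, 0.17 for TLL1, 0.24 for MMP23B and 0.35 for HABP2. Without control replicate 3 the 5 calls were lost as well, with edgeR adjusted p of 0.061, 0.10, 0.069, 0.11 and 0.066 in the same order. Other single libraries also ended those of TLL1, TLL2, MMP23B and HABP2. ADAM15 and CTSD, which fell, were the most abundant genes of their lists; those of the plasminogen and contact, serine protease and matrix metalloproteinase lists did not pass the test, with log2 fold changes of -0.01 for F2, 0.03 for FURIN and 0.08 for MMP14. MMP1 and MMP9, secreted collagenase and gelatinase, had at most 2 counts in any library, under the floor of 3 counts. PLG had a log2 fold change of -0.04 (SE 0.16).

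Of 41 listed inhibitors 32 were tested. Of these, 1 rose (3.1%, beside 5.69% of all tested genes), 0 fell (beside 4.94%) and 31 did not pass. The median log2 fold change of the 32 was 0.04. At an unadjusted p under 0.05 in edgeR, 4 were higher and 6 lower, or 12.5% and 18.8%, beside 11.8% and 12% of all tested genes. The 6 lower became 3 with the replicate block and 1 to 5 without single libraries, the fewest without overexpression replicate 3. After adjustment DESeq2, which tested 27 of the inhibitors, called 1 higher and 1 lower. That is 3.7% each, beside 6.25% higher and 6.58% lower of the 11787 genes it tested. The lower inhibitor was the cysteine protease inhibitor CST3, also the most abundant cystatin, and limma called 0 lower. SERPINB9, an intracellular inhibitor of granzyme B, rose from 14.3, 13.1 and 13.4 CPM to 18.6, 19.1 and 18.8 CPM, a log2 fold change of 0.47 (SE 0.09, edgeR adjusted p = 0.0019). The most abundant inhibitors of the other lists did not pass, with log2 fold changes of 0.04 for AMBP at 970 FPKM in controls, -0.09 for SERPINA1, -0.08 for A2M and -0.15 for TIMP3. Summed over the listed inhibitors with a row, members included, the level was 1738 ± 54.9 FPKM in controls and 1770.3 ± 44.3 FPKM with TKT (SD, n = 3), so the summed level differed by less than the spread. The corresponding sums over proteases were 663 ± 14.6 and 660 ± 10.1 FPKM. Secreted liver proteins took a large part of these sums, AMBP with 970 FPKM and F2 with 267 FPKM in controls.

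Of 30 other receptors and cofactors 26 were tested. Of these, 4 rose (15.4%, beside 5.69% of all tested genes), 2 fell (7.69%, beside 4.94%) and 20 did not pass. The median log2 fold change of the 26 was 0.03. F2RL2, the protease-activated receptor that serves as a thrombin cofactor, rose from 3.69, 3.42 and 3.70 CPM in controls to 10.1, 9.92 and 10.3 CPM with TKT. Its log2 fold change of 1.49 (SE 0.14, edgeR adjusted p = 1.3e-07), or 2.80-fold, was the widest called among these receptors and cofactors, and on the log2(FPKM + 1) scale it was 0.95. Its relatives F2R and F2RL1 did not pass, with log2 fold changes of -0.12 for F2R and 0.27 for F2RL1. LRP1, the scavenger receptor that clears complexes of proteases with serpins, fell by 0.24 on the log2 scale, from 319, 340 and 293 CPM to 268, 259 and 278 CPM (edgeR adjusted p = 0.0024), but was not called with limma on FPKM (limma adjusted p = 0.080). Its relative LRP8 fell by 0.25 (edgeR adjusted p = 0.041), with overlapping groups. SDC4, a heparan sulfate proteoglycan, rose by 0.22 and the kininogen gene KNG1 by 0.24 (edgeR adjusted p = 4.1e-04 and 0.0086). VTN, or vitronectin, which binds PLAUR, rose by 0.12 (edgeR adjusted p = 0.043). Another annotated gene on the same strand shares 13.6% of the exon bases of VTN, and an antisense gene shares 15.4% of those of KNG1. The calls of LRP8, KNG1 and VTN were lost without overexpression replicate 1, with edgeR adjusted p of 0.18, 0.058 and 0.24, and other single libraries ended those of LRP8 and VTN. ENO1, a glycolytic enzyme that also binds plasminogen, was the most abundant of the list in controls, at 632 FPKM. Its log2 fold change of -0.08 did not pass. With TKT, VTN stood above ENO1, at mean levels of 616 and 600 FPKM.

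**Figure D3:**
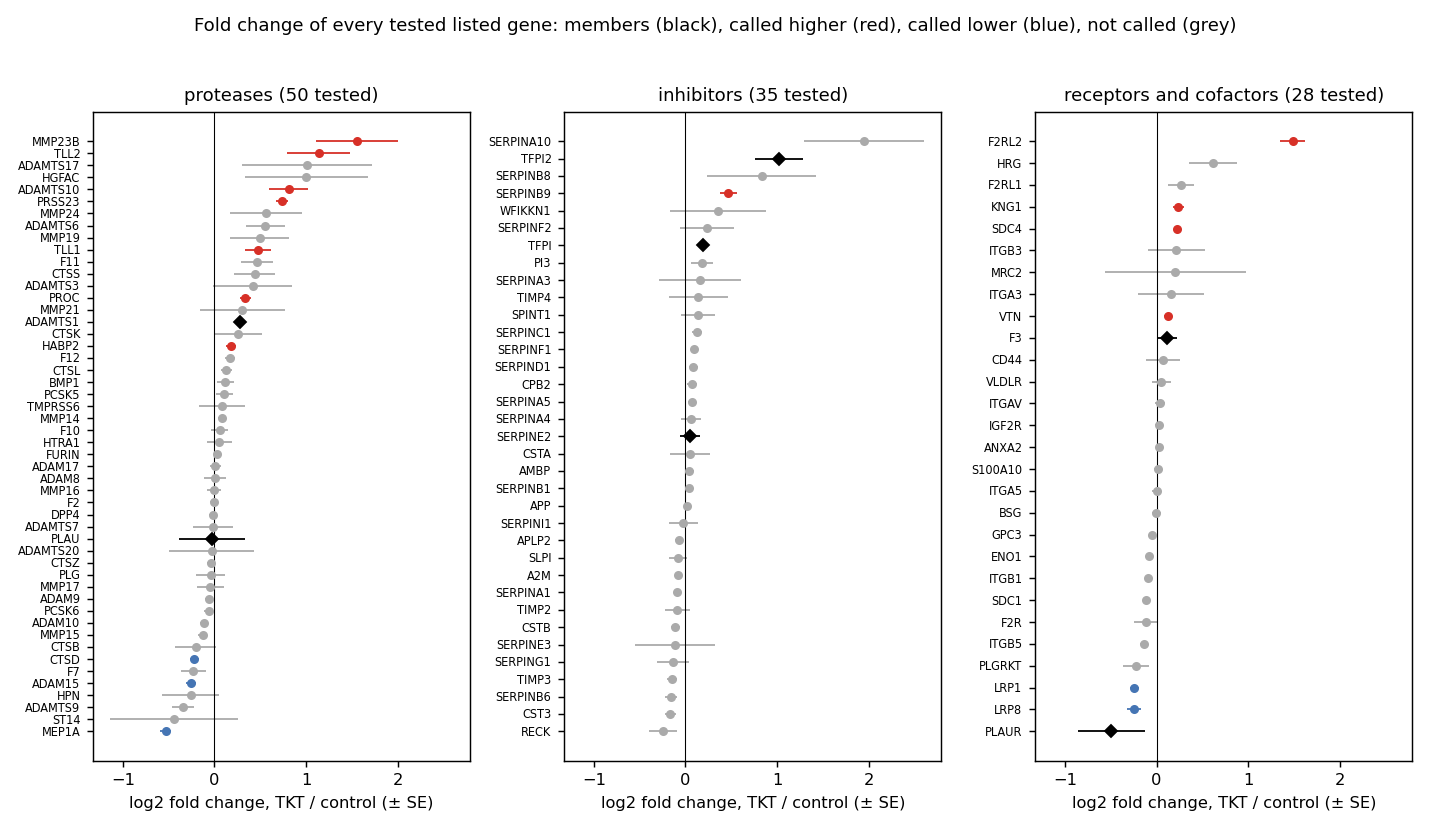
Log2 fold change of TKT overexpression over control with its SE (x axis) for every listed gene that passed the filter, grouped by role, with 50 proteases, 35 inhibitors and 28 receptors or cofactors. Red and blue points were called higher or lower with edgeR at an adjusted p under 0.05, grey points were not, and the 7 members are black diamonds drawn with no call.

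The tested members lie on separate chromosomes or far apart in GENCODE coordinates of build GRCh38. TFPI2 is at chr7:93885396-93890991, ADAMTS1 at chr21:26835747-26845409 and F3 at chr1:94529225-94541800, all on the minus strand. TFPI is at chr2:187464230-187565760 and SERPINE2 at chr2:223975112-224039319, also on the minus strand. PLAUR is at chr19:43646095-43670547 on the minus strand, and PLAU is at chr10:73909177-73917497 on the plus strand. The gene C10orf55 runs against PLAU and covers 31.1% of its exon bases; whether reads were counted by strand is not given in the sources used here, so reads of these genes cannot be told apart. For TFPI and TFPI2 the shared exon bases with any gene on the other strand were at most 2.95%.

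Promoters are shown for F3, TFPI and TFPI2, 3 of the 4 members whose groups were apart, to set their sequence beside their values. RefSeq promoters of build GRCh38.p14, from 250 bases before to 50 bases after the annotated start, were taken for 7 of the 9 members, as 9 sequences. ADAMTS1 had no entry, and PLAT was left out of the search. The annotated starts of the F3, TFPI and TFPI2 entries each lie downstream of the outermost GENCODE start of the gene. The TFPI entry lies wholly inside the GENCODE span. On both strands they were searched for CACGTG, the E-box that MYC and related factors can bind, for TGANTCA, the letters that FOS and JUN dimers (AP-1) can bind, for the GC box GGGCGG, and for TATAAA. Of all 35116 promoters in the table, 7.26% hold CACGTG, 7.71% hold TGANTCA, 45.0% hold GGGCGG and 11.5% hold TATAAA. Capitals mark any of these in the minus-strand sequences at chr1:94541710-94542009, chr2:187554386-187554685 and chr7:93890704-93891003.
F3: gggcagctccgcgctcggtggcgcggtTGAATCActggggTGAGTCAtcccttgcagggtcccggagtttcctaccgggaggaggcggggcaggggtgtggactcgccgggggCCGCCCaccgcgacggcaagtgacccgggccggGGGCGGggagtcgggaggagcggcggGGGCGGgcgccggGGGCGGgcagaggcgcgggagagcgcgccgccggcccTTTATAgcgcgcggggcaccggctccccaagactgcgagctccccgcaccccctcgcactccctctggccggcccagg
TFPI: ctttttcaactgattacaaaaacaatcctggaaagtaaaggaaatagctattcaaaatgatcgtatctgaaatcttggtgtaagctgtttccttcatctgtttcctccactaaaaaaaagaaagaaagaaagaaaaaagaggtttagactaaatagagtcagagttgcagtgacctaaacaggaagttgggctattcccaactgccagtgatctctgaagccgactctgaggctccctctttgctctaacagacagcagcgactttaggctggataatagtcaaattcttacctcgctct
TFPI2: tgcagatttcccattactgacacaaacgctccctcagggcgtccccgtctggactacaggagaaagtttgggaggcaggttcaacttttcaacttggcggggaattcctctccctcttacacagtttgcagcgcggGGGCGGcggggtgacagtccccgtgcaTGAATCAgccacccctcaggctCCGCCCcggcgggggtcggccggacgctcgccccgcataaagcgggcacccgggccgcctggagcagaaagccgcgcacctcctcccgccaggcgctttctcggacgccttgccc
The F3 promoter holds 2 TGANTCA matches, which start at -223 and -210 from the first transcribed base, 4 GC boxes and 1 TATAAA match at -28. The TFPI2 promoter holds 1 TGANTCA match at -87 and 2 GC boxes. The PLAUR promoter also holds 1 TGANTCA match, at -186, and PLAUR had overlapping groups and a negative fold change. The TFPI promoter, with 39.3% G and C against 77.3% for F3 and 65.3% for TFPI2, holds no match of any kind. None of these 3 promoters holds CACGTG. Among the 9 member promoters searched, only the SERPINE2 entry at chr2:224031429-224031728 does, and SERPINE2 had overlapping groups. A match is a description of letters, and binding was not measured.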

How the data were processed

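Total RNA from cell culture was extracted with TRIzol and sequenced as paired-end reads. Per the labels and methods, the authors trimmed reads with fastp 0.22.0 and aligned them with HISAT2 2.1.0 to build hg38; the deposited counts are raw whole-number reads per gene symbol from featureCounts, whose strand and multi-mapping options are not given in the sources used here. The deposited FPKM values were made by the authors; the gene lengths and totals behind them are not given in the sources used here. Groups came from the labels. The control columns carry the titles of their libraries. Columns named for TKT were given by number to the libraries titled OE, since TKT is the gene overexpressed. Counts were filtered with filterByExpr at a minimum count of 10, scaled by TMM and fitted with the quasi-likelihood test of edgeR 4.0.16 in R 4.3.3 for TKT overexpression against control, with Benjamini-Hochberg adjustment over all 14162 tested genes. SEs are the log2 fold change over the square root of the F statistic. The floor is 3 counts and covers counting error only. DESeq2 1.42.0, limma 3.58.1 on FPKM, other scalings and filters, a replicate block and the removal of each library served as alternatives. The test was checked on simulated data. The members and lists were chosen with earlier results of these data known. Of the listed genes, 1 is not reported here and enters no list count, sum, ratio or figure. Named genes were the members, up to 3 called genes of each list with the widest log2 fold change, the most abundant gene of each list, and PLG, MMP1, MMP9, MMP14, F2R and F2RL1; TLL1, SDC4, KNG1 and VTN fall outside this rule and were named after their values were seen. Overlaps of exons came from GENCODE annotation of GRCh38.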

Additional observations from a re-analysis of the deposited data

How the results depend on the processing

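The counts of called genes depended on the setting, and the cause was not tested. Of all genes, 806 were called higher and 699 lower. With the replicate block these counts were 431 and 266, with limma on log2(FPKM + 1) 496 and 331, and on log2(FPKM + 0.1) 494 and 332. Leaving out single libraries gave 457 to 820 higher and 334 to 766 lower. Past an absolute log2 fold change of 1, the count of 103 became 63 with DESeq2, 160 without a filter on low counts, 67 with the replicate block, 13 and 66 with limma at pseudocounts of 1 and 0.1, and 74 to 128 without single libraries.

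The 7 listed proteases called higher became 3 with the replicate block and 3 and 4 with limma at pseudocounts of 1 and 0.1; without single libraries they were 2 to 6. The 3 called lower were 3 without each library in turn. The 1 listed inhibitor called higher became 2 without a filter on low counts and 1 to 2 without single libraries; lower, 1 was called with DESeq2 and 1 without a filter on low counts, and 0 to 1 without single libraries. Of receptors and cofactors, the 4 called higher were 2 to 4 without single libraries, and the 2 called lower became 4 with DESeq2, 4 without a filter on low counts, 1 with the replicate block, 0 with limma at either pseudocount, and 1 to 3 without single libraries. Deviations of same-numbered libraries had correlations of -0.0080, -0.062 and 0.019, and those of other pairs ran from -0.067 to 0.075. With 3 libraries a group, such values cannot decide whether the numbers pair the samples. The block served as a check only.

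Among members, ADAMTS1 (0.26 to 0.31), TFPI (0.16 to 0.24), F3 (0.10 to 0.13) and TFPI2 (0.48 to 1.32) kept a positive and PLAUR (-0.65 to -0.09) a negative log2 fold change over 14 alternatives, while PLAU (-0.15 to 0.18) and SERPINE2 (-0.04 to 0.11) took both signs. The log2 change of F3 over TFPI was -0.08 and between -0.14 and -0.03 without single libraries. With 2 to 17 counts for PLAT and 23 to 47 for PLAU and PLAUR, depth limits what these genes can show.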
